A study of Mus musculus with 44 samples.

Results

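The genes described here are 10 members of the Toll-like receptor system in mouse liver: the receptors Tlr1, Tlr2, Tlr4, Tlr5, Tlr7, Tlr8 and Tlr9, the lipopolysaccharide co-receptors Cd14 and Ly96, and the adaptor Myd88. They were chosen by name and not by their values, and they are 10 of the 35249 genes in the deposited count table. Liver RNA was sequenced from mice of 3 genotypes: WT (wild type), Ripk3KO (lacking Ripk3) and MlklKO (lacking Mlkl). In necroptosis, a lytic form of programmed cell death, the kinase RIPK3 activates MLKL, which breaks the cell membrane, and the study asked how blocking it bears on liver inflammation and tumours. From 2 months of age the mice were kept for 6 months on chow (called control), on CD-LFD (choline-deficient, low in fat) or on CD-HFD (choline-deficient, high in fat). There were 6 WT libraries on each diet, then 6, 3 and 4 Ripk3KO libraries and 6, 4 and 3 MlklKO libraries on control, CD-LFD and CD-HFD. The labels give no sex, litter or strain, do not say how the knockouts were made, and do not say that each library came from a separate animal, so p-values measure the spread between these libraries.

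Toll-like receptors bind conserved microbial molecules, and some molecules released by damaged cells, and pass the signal through adaptors that carry a TIR domain. Most use MYD88, which assembles a kinase complex that activates NF-kappaB and cytokine genes. In the liver, blood from the gut brings microbial products to macrophages, endothelium and hepatocytes, and liver macrophages are known for carrying many of these receptors. TLR1 pairs with TLR2 at the cell surface, TLR4 works with LY96 and CD14, TLR5 binds flagellin, and TLR7, TLR8 and TLR9 bind nucleic acids inside endosomes.

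Total counts were 2476268 to 12471844 in 43 libraries and 88204703 in WT CD-LFD replicate 3. Levels are given as CPM, counts scaled to a common library size, as mean ± SD over libraries. Ripk3 had 0 to 9 counts in the Ripk3KO libraries. The library labelled Ripk3KO control replicate 5 had the highest level, 1.01 CPM, above the 0.439 to 0.866 CPM of WT control replicates 1 to 3 and below the other 3 (up to 4.78 CPM). Mlkl was at 1.24 to 2.61 CPM in MlklKO control libraries against 2.02 to 5.5 CPM in WT, which overlap, and at 2.83 to 3.93 against 10.3 to 18 CPM on CD-LFD. On CD-HFD it was at 14.5, 6.02 and 3.55 CPM in the libraries labelled MlklKO, against 17.3 to 22.6 CPM in WT, so that replicate 1 of that group lay near WT. Both libraries were kept, and the fits without them are given where a call changes. The ratio of the clock genes Arntl and Dbp fell on either side of a gap of 1.01 on the log2 scale, with 4 of 6 WT control, 6 of 6 WT CD-LFD and 1 of 6 WT CD-HFD libraries on the high side and 0 of the knockout libraries on any diet. The clock-phase covariate named below is that side. Hepatocyte markers (Alb, Ttr, Apoa1, Hnf4a) were counted in every group. All 10 members passed the filter on low counts, which kept 14862 genes. For the members CPM are also scaled by TMM factors. Differences are log2 values from the edgeR quasi-likelihood test over all 44 libraries, and a gene is called higher or lower where its Benjamini-Hochberg adjusted p over the 14862 genes is under 0.05.

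Promoter windows for 6 of the members were taken from the RefSeq promoter table (mouse build GRCm38.p6). Whether the other members, Cd14 among them, have an entry there is not given here. The 250 bases before the start are shown for 4 of the 6: Tlr2 and Tlr1, which share a receptor, Myd88, which moved apart from the receptors, and Tlr5, which fell. Each is written 5′ to 3′ on the gene's strand, with motif matches in capitals. The windows are chr3:83841609-83841858 (minus strand) for Tlr2, chr5:64933559-64933808 (minus) for 1 of the 2 Tlr1 starts, chr9:119340019-119340268 (minus) for Myd88 and chr1:182954538-182954787 (plus) for Tlr5.
Tlr2: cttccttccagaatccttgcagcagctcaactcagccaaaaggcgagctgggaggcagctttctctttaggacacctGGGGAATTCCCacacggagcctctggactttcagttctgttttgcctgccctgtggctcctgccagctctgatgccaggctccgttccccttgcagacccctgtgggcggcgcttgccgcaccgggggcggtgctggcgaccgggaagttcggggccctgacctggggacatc
Tlr1: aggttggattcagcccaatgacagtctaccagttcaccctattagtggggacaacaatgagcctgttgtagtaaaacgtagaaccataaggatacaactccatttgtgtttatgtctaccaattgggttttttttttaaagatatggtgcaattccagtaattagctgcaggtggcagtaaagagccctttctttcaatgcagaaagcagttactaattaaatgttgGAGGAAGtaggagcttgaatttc
Myd88: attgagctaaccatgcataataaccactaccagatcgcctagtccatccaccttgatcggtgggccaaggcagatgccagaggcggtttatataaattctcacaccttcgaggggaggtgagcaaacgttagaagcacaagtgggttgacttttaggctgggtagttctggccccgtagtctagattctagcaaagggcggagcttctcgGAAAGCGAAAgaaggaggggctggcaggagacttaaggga
Tlr5: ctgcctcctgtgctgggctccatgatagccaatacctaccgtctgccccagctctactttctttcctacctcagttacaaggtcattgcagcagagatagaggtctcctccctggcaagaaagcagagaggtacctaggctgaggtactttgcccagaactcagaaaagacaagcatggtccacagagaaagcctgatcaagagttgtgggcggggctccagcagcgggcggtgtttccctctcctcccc

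Both strands of each window were searched for 4 motifs: the NF-kappaB site, the PU.1 core GAGGAAG, the AP-1 site TGANTCA and an ISRE-like pair of GAAA spaced by any 2 bases. The Tlr2 window holds overlapping NF-kappaB matches from 173 to 163 bases before the start, a motif found in 3.9% of 32851 windows of this length. The Tlr1 window holds the PU.1 core 23 to 17 bases before the start (10.6% of windows), and the Myd88 window holds the ISRE-like pair 40 to 31 bases before it (2.98% of windows). The Tlr9 window, not printed, holds the PU.1 core and an AP-1 match (6.75% of windows). These letters are not in the Tlr5 and Tlr8 windows or at the other Tlr1 start. A match is a description of the sequence, and binding was not measured.

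CD-HFD raised 6 members and lowered 1 in WT liver. Tlr1, Tlr2, Tlr4, Tlr7, Tlr8 and Cd14 were higher than on the control diet, Tlr5 was lower, and for all 7 the 6 CD-HFD libraries did not overlap the 6 control libraries. The share of all genes whose libraries separate in this way was not counted, here or in the comparisons below. Tlr9, Ly96 and Myd88 did not pass the test. Of all genes tested, 47.7% were called in this comparison, so that 7 of 10 called members stands beside a wide change of the transcriptome. The median log2 change was 2.39 over the members and -0.07 over all genes tested. In bulk liver, more cells of a type cannot be told apart from more RNA per cell. The plot of levels in each library shows all 10 genes.

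**Figure D1:**
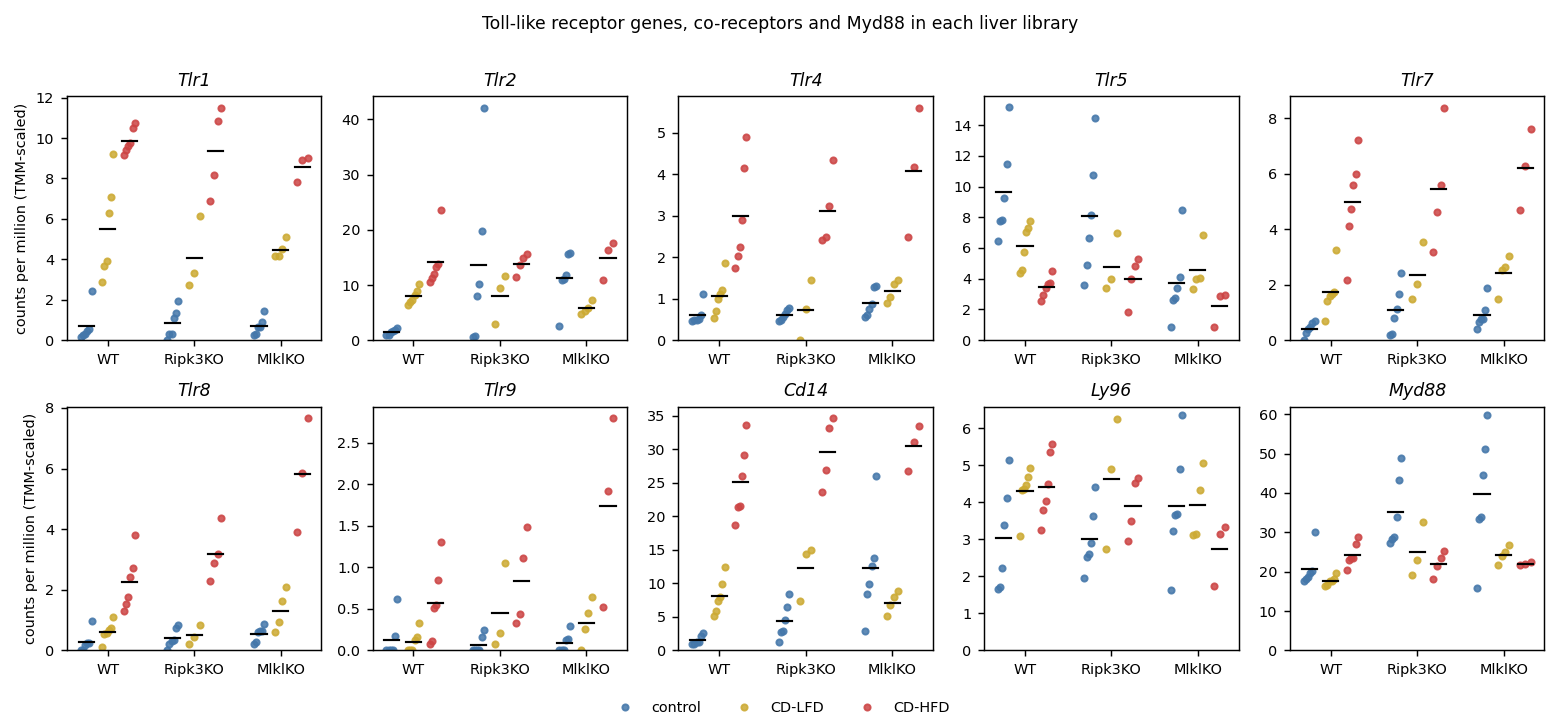
Level of each gene (CPM scaled by TMM, linear axis) in each of the 44 libraries, by genotype and colour-coded diet, with points spread sideways for visibility and a bar at each group mean. In WT, Tlr1 lies at 9.16 to 10.7 on CD-HFD against 0.17 to 2.44 on control. Ly96 and Myd88 overlap between these 2 diets, and Tlr5 runs the other way.

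Of the surface receptors for lipopeptides, Tlr1 had the largest log2 estimate, but its change was not separated from that of Tlr2. In WT, the ratio of Tlr1 to Tlr2 counts within a library differed by 0.93 on the log2 scale between these diets (exact permutation test, adjusted p 0.219), with overlap. Tlr1 had a lowest, median and highest level of 0.17, 0.382 and 2.44 CPM on the control diet in WT, against 9.16, 9.68 and 10.7 CPM on CD-HFD. The CD-HFD libraries lay close together, and 1 control library (replicate 6) stood above the other 5. The control level rests on 18 counts, 10 of them in that library. The log2 change was 3.83 (SE 0.43, adjusted p 1.22e-09), and 4.76 without that library. Tlr1 shares 13.6% of its 50-base stretches with its neighbour Tlr6, so reads may be split between these paralogs.

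Tlr2, the partner of TLR1 and TLR6, was at 0.913, 1.58 and 2.15 CPM (lowest, median, highest) in WT control livers and at 10.5, 12.7 and 23.6 CPM on CD-HFD. Every CD-HFD library was above every control library. The log2 change was 3.17 (SE 0.56, adjusted p 1.04e-05), a 9.02-fold rise.

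Tlr4, the receptor for lipopolysaccharide, was low in every WT control library, with 0.456, 0.5 and 1.1 CPM as lowest, median and highest. On CD-HFD it was 1.73, 2.57 and 4.91 CPM, a log2 change of 2.17 (SE 0.38, adjusted p 8.72e-06). Cd14, which hands lipopolysaccharide to the TLR4 complex, was at 0.913, 1.23 and 2.62 CPM on control and 18.7, 23.8 and 33.6 CPM on CD-HFD. Its log2 change of 3.88 (SE 0.38, adjusted p 4.58e-11) was a 14.8-fold rise, and the groups were far apart. Ly96 encodes MD-2, the subunit that binds lipid A within that complex. It was at 3.03 ± 1.41 CPM (n = 6) on control and 4.42 ± 0.91 CPM (n = 6) on CD-HFD, ranges that overlapped, with a log2 difference of 0.61 (SE 0.28, adjusted p 0.0663 by edgeR). Without WT control replicates 5 and 6, which had the highest Ly96 of that group (4.11 and 5.13 CPM), it was 1.02 (adjusted p 0.00409 by edgeR). It also passed without WT control replicate 5, control replicate 6 or CD-HFD replicate 4 alone (adjusted p 0.0118 to 0.0481 by edgeR), with DESeq2 (adjusted p 0.0354), RLE factors (adjusted p 0.0493) or the clock-phase covariate (adjusted p 0.0481), and with scaling by library size alone (log2 1.09, adjusted p 0.00212 by edgeR).

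Tlr5 was the 1 member that fell. It was at 6.46, 8.55 and 15.2 CPM (lowest, median, highest) in WT control livers and at 2.58, 3.54 and 4.47 CPM on CD-HFD. No CD-HFD library reached the lowest control library. The log2 change was -1.51 (SE 0.33, adjusted p 0.000188).

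Among the endosomal receptors, Tlr7 and Tlr8, neighbours on the X chromosome that bind single-stranded RNA or its fragments, both rose. Tlr7 went from 0, 0.452 and 0.681 CPM (lowest, median, highest) on control to 2.16, 5.16 and 7.2 CPM on CD-HFD, a log2 change of 3.44 (SE 0.46, adjusted p 6.33e-08). Tlr8 went from 0, 0.207 and 0.966 CPM to 1.29, 2.1 and 3.82 CPM, a log2 change of 2.61 (SE 0.50, adjusted p 3.34e-05). Without WT control replicate 1, which had the highest level, that of Tlr8 was 3.75, and with the clock-phase covariate 3.24. The control levels rest on 12 counts of Tlr7 and 10 of Tlr8 over 6 libraries, so the size of each rise is loosely fixed.

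Tlr9, the receptor for unmethylated CpG DNA, was near the limit of detection. WT control livers held 3 counts in all, with 4 libraries at 0, and CD-HFD livers held 30 counts with none at 0. The pooled rate was 4.76 times as high on CD-HFD (95% Clopper-Pearson interval 1.48 to 24.4, counting error only). The edgeR log2 difference of 2.14 (SE 0.96) had an adjusted p of 0.0618, and it passed without WT control replicate 4 (log2 3.33, adjusted p 0.0191 by edgeR), without CD-HFD replicate 4 or 5 (adjusted p 0.0393 and 0.0318), with the clock-phase covariate (adjusted p 0.0401) and with scaling by library size alone (adjusted p 0.016).

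Myd88 was the most abundant member in WT control livers. It was at 17.5, 19.1 and 30.1 CPM (lowest, median, highest) on control and 20.5, 23.5 and 28.7 CPM on CD-HFD, ranges that overlapped. The log2 difference was 0.25 (SE 0.19, adjusted p 0.283). Scaling by library size alone, which moves the median of all genes from -0.07 to 0.43 in this comparison, gave 0.75 (adjusted p 0.00122 by edgeR). Myd88 shares 223 bases of exon with Acaa1a on the opposite strand. The kit keeps strand, but the strand setting used in counting is not given in the sources used here.

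Per kilobase of exon, the means in WT control livers ordered the members as Myd88 (8.03 ± 1.83 CPM per kb, n = 6), Ly96 (2.97 ± 1.38), Tlr5 (2.02 ± 0.67), Cd14 (0.883 ± 0.411), Tlr2 (0.498 ± 0.161) and Tlr1 (0.208 ± 0.259). Ly96 and Tlr5 overlapped within 1 SD, as did Cd14 and Tlr2, and Tlr2 and Tlr1, so their order is not fixed. Tlr4, Tlr7, Tlr8 and Tlr9 followed at 0.0376 to 0.11, within each other's spread. The place of Tlr1 rests on replicate 6: without it Tlr1 was at 0.103 ± 0.0466 CPM per kb and Tlr4 at 0.114 ± 0.0484 (n = 5 each). On CD-HFD Cd14 led at 14.5 ± 3.23 CPM per kb, then came Myd88 (9.44 ± 1.16), Tlr2 (4.68 ± 1.59), Ly96 (4.32 ± 0.89) and Tlr1 (2.95 ± 0.19). Tlr2 and Ly96 were within each other's spread there. Tlr5 was at 0.723 ± 0.138, between Tlr7 (1.21 ± 0.42) and Tlr8 (0.629 ± 0.262), and overlapped both within 1 SD.

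CD-LFD gave a partial set of these changes in WT. Tlr1, Tlr2, Tlr7 and Cd14 were called higher than on control and none lower, 4 of 10 against 27.7% of all genes called. In all 4 the libraries of the diets did not overlap. Tlr1 rose by 2.96 on the log2 scale (SE 0.44, adjusted p 3.13e-06), to 5.50 ± 2.43 CPM (n = 6), and by 3.89 without WT control replicate 6. Tlr2 rose by 2.34 (SE 0.57, adjusted p 0.00211), to 7.95 ± 1.41 CPM, and Cd14 by 2.24 (SE 0.40, adjusted p 4.13e-05), to 8.11 ± 2.68 CPM. Tlr7 rose by 1.88 (SE 0.50, adjusted p 0.0046), to 1.73 ± 0.84 CPM. Tlr4, the receptor CD14 serves, gave 0.73 (SE 0.41, adjusted p 0.18), Tlr8 0.79 (adjusted p 0.303), Ly96 0.55 (adjusted p 0.136), Tlr5 -0.68 (adjusted p 0.103) and Myd88 -0.21 (adjusted p 0.44). Ly96 passed without WT control replicate 6 (adjusted p 0.028), without replicates 5 and 6 together (log2 0.97, adjusted p 0.00965) and with scaling by library size alone (adjusted p 0.0274). Tlr8 passed without WT control replicate 1 (log2 1.93, adjusted p 0.0423).

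CD-HFD was set against CD-LFD in WT, where both diets lack choline and differ in fat. These groups also differ in clock phase, with 1 of 6 and 6 of 6 libraries on the high side. Tlr1, Tlr4, Tlr7, Tlr8 and Cd14 were higher on CD-HFD and none was lower, 5 of 10 against 21.1% of all genes. Tlr4 was at 0.543 to 1.85 CPM on CD-LFD and 1.73 to 4.91 CPM on CD-HFD, a log2 difference of 1.44 (SE 0.32, adjusted p 0.000708). Only 1 CD-LFD library (replicate 5) reached into the CD-HFD range. Tlr8 differed by 1.82 (SE 0.40, adjusted p 0.000654), Cd14 by 1.64 (SE 0.30, adjusted p 6.78e-05) and Tlr7 by 1.56 (SE 0.34, adjusted p 0.000721). With the clock-phase covariate that of Tlr8 was 2.67. Tlr1 differed by 0.87 (SE 0.31, adjusted p 0.0368), a call that was lost with the clock-phase covariate (adjusted p 0.17) and in 7 of 12 fits leaving out 1 library (CD-HFD replicate 1, 2, 4 or 6, or CD-LFD replicate 1, 3 or 4; adjusted p up to 0.122). Tlr2 differed by 0.83 (adjusted p 0.181), Tlr5 by -0.83 (adjusted p 0.0594), Tlr9 by 1.55 (adjusted p 0.101), Myd88 by 0.46 (adjusted p 0.0714) and Ly96 by 0.06 (adjusted p 0.909). Tlr5 passed without CD-LFD replicate 5 or 6 (adjusted p 0.0476 and 0.0462), and Tlr9 without CD-HFD replicate 5 (adjusted p 0.0492) or CD-LFD replicate 3 (log2 2.90, adjusted p 0.0272). Myd88 was at 16.3 to 19.7 CPM on CD-LFD and 20.5 to 28.7 CPM on CD-HFD, without overlap. The fit of only these 2 groups called 8 members, the others being Tlr2, Tlr5 and Myd88. Myd88 also passed with DESeq2 (adjusted p 0.0414), and Myd88 and Tlr9 with scaling by library size alone (adjusted p 0.00861 and 0.0449).

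**Figure D2:**
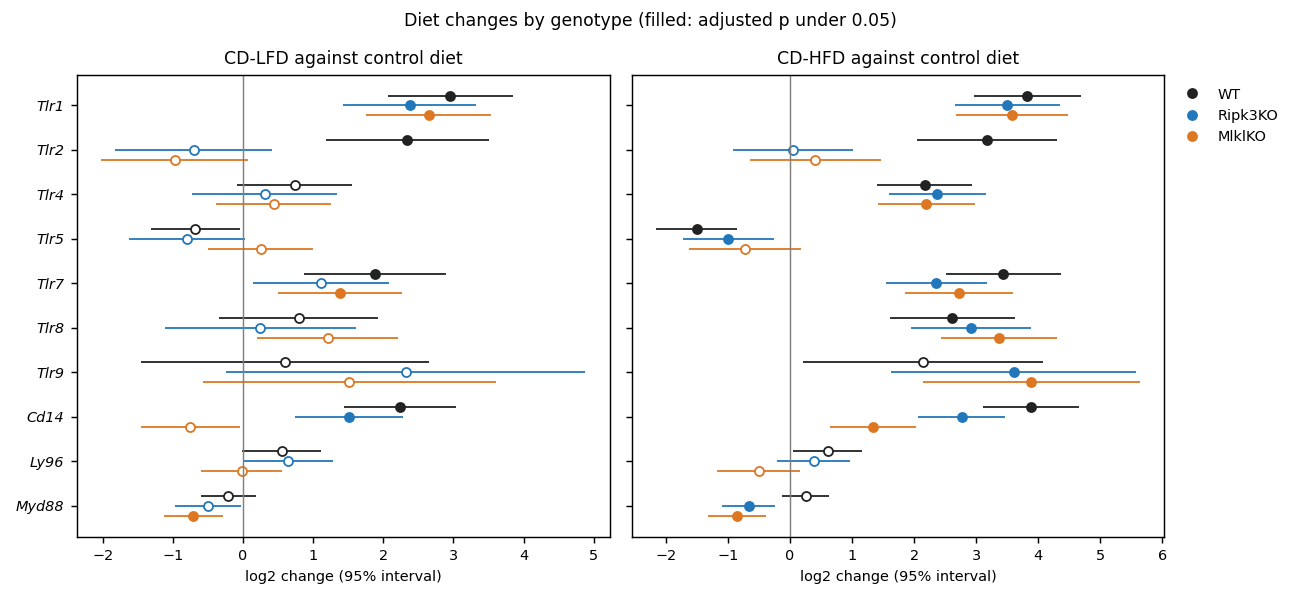
Log2 change of each gene on CD-LFD (left) and CD-HFD (right) against the control diet within each genotype, with 95% intervals and filled points where the adjusted p is under 0.05. The genotypes lie together for Tlr1 and Tlr4 on CD-HFD, while Tlr2 is at 3.17 in WT, 0.05 in Ripk3KO and 0.41 in MlklKO.

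Because the members act as complexes, the ratio of counts between 2 members in the same library was compared as well, which cancels the scaling of the library. Over 7 pairs and 5 comparisons, 35 two-sided exact permutation tests were run and adjusted together. Between the choline-deficient diets in WT, the log2 ratio of Ly96 to Tlr4 was 2.02 ± 0.62 on CD-LFD (n = 6) and 0.63 ± 0.39 on CD-HFD (n = 6). The difference of -1.40 had an adjusted p of 0.00947 by the exact permutation test, and the groups did not overlap. The ratio of Tlr5 to Tlr4 fell by 2.22 (exact permutation test, adjusted p 0.00947), again without overlap. That of Myd88 to Tlr4 fell by 0.97 (exact permutation test, adjusted p 0.0439), with overlap, and no other ratio was called between these diets. The ratio of Cd14 to Tlr4 differed by 0.24 (exact permutation test, adjusted p 0.677) and that of Tlr1 to Tlr2 by 0.17 (adjusted p 0.677), both with overlap. Against the WT control diet the ratios rest on 1 to 8 counts of Tlr4 a library. Leaving out libraries with under 5 counts of either gene left too few control libraries for any call against control to be possible. That setting could therefore not check these calls.

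**Figure D3:**
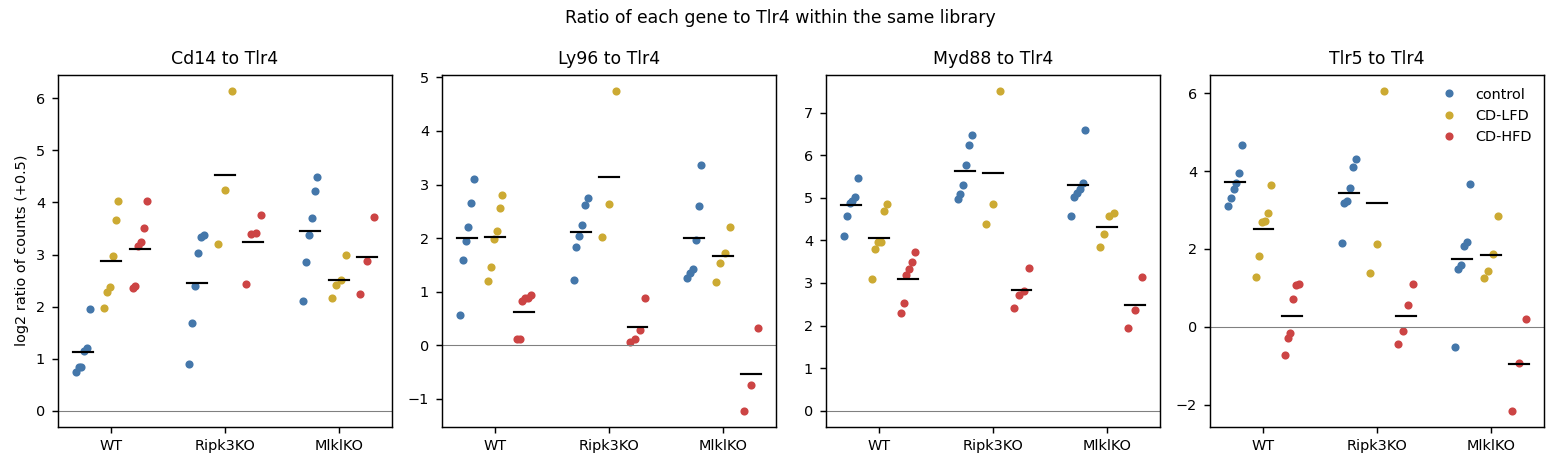
Log2 ratio of the counts of Cd14, Ly96, Myd88 and Tlr5 to those of Tlr4 in the same library (0.5 added to each count), by genotype and diet, with a bar at each group mean. In WT the ratio of Ly96 to Tlr4 averages 0.63 on CD-HFD and 2.02 on CD-LFD without overlap, while that of Cd14 to Tlr4 overlaps between these diets.

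Other genes of the pathway were taken from lists by role, and each count is for WT on CD-HFD against control, where 23.5% of all genes were called higher and 24.1% lower. Of the inducible targets of the pathway, 12 of 16 could be tested, 10 were higher and 1 lower, with a median log2 change of 3.16. The chemokine genes Cxcl2 (2.09 ± 0.53 against 0.0284 ± 0.0695 CPM, log2 5.35, edgeR adjusted p 8.94e-07) and Ccl5 (13.2 ± 3.6 against 0.898 ± 0.72 CPM, log2 4.02, edgeR adjusted p 5.32e-09) were among those that rose, and Il1b was the 1 that fell (log2 -1.35, edgeR adjusted p 0.00496). The first rests on a control group near 0. Of 5 other Toll-like receptors, 3 rose and 2 were not called. Tlr13, a receptor for bacterial ribosomal RNA, rose by 4.24 (SE 0.32, edgeR adjusted p 7.2e-14) and Tlr6 by 2.03 (SE 0.45, edgeR adjusted p 0.000252).

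Accessory and trafficking genes were higher in 8 of 11 and lower in 1. Ctss, a protease that processes endosomal receptors, went from 16.3 ± 5.3 to 253.8 ± 134.8 CPM, and Cd180, a receptor homologue of TLR4, from 0.696 ± 0.419 to 8.06 ± 4.18 CPM. Among 7 endogenous ligands 4 rose and 1 fell, with the matrix proteins Tnc (log2 3.72, SE 0.41) and Vcan (log2 3.69, SE 0.58) rising most. The 20 signalling kinases, ligases and factors split evenly, 5 higher and 5 lower with a median of -0.18. Irf7, an interferon regulatory factor used by TLR7 and TLR9, rose by 1.66 (SE 0.24), while Chuk and Ikbkg, subunits of the IKK complex, fell by 0.94 (SE 0.10) and 0.64 (SE 0.12) on the log2 scale. Of the adaptors other than Myd88, 3 of 4 could be tested: Ticam2 (log2 3.79, SE 0.62) and Ticam1 (log2 0.67, SE 0.16) rose and Tirap fell (log2 -0.80, SE 0.16). Negative regulators were higher in 4 of 8 and lower in 1, with Tnfaip3 (log2 2.81, SE 0.44) and Socs1 (log2 1.61, SE 0.55) among the rises.

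Markers of several cell types moved with the same diet. The summed level of 4 pan-leukocyte markers was 18.6 to 39.8 CPM in WT control libraries and 175.7 to 257 CPM on CD-HFD, with 4 of 4 called higher. The 5 markers of lipid-associated macrophages summed to 48.4 to 69.9 CPM on control and 982.7 to 1936 CPM on CD-HFD (5 of 5 higher), and the 5 general macrophage markers to 123.7 to 211.3 and 645.1 to 1803 CPM (4 of 5 higher). Kupffer cell markers went the other way, at 120.2 to 168 CPM on control and 39.4 to 130.5 CPM on CD-HFD (3 of 5 lower). Of the 6 neutrophil markers 2 could be tested and 1 was higher, the sum stayed at 4.09 CPM or less in WT control and CD-HFD libraries, and Ly6g was at 0 in both groups. Of the dendritic cell markers 5 of 5 were higher, of the T and NK cell markers 4 of 4 tested, of the B cell markers 1 of 3 tested and of the plasmacytoid dendritic cell markers 2 of 3 tested. The summed level of the stellate cell markers was 188.7 to 217.2 CPM on control and 459.1 to 748.4 CPM on CD-HFD (2 of 4 higher), and that of the cholangiocyte markers 15.4 to 34.7 and 78.7 to 117.4 CPM (4 of 4 higher), both without overlap. Sinusoidal endothelium markers were lower in 3 of 4, with a median sum of 117.6 CPM on control and 72.3 CPM on CD-HFD. Of the monocyte markers 3 of 4 tested were higher, while the sum of the list had a median of 1029 CPM on control and 753.3 CPM on CD-HFD. On control that sum far exceeded the pan-leukocyte sum, so it is not read as a measure of monocytes. Hepatocyte markers were lower in 4 of 4. The part of these markers in the members' changes was not tested.

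The members differed in which genes followed them over all 44 libraries, given as Pearson's r of log2 CPM, without a test. The 3 diets are shared by all such pairs. Tlr1 was most like Capg (0.951), Cyth4 (0.95) and Myo1f (0.949), and Tlr7 like Plcg2 (0.937), Plek (0.933) and Mpeg1 (0.925). Tlr4 was most like Pip4k2a (0.869), Tlr9 like Tm6sf1 (0.785) and Cd14 like Slc6a8 (0.928). Tlr2 was most like Icam1 (0.924) and Lcn2 (0.922), Myd88 like Ube2s (0.842) and Socs3 (0.823), Tlr5 like Bco2 (0.828) and Ly96 like Lrif1 (0.723). Of the member pairs, Tlr2 and Cd14 followed each other most after group means were removed (0.736), then Tlr2 and Tlr7 (0.652) and Tlr7 and Tlr8 (0.568), while Tlr5 and Cd14 went opposite ways (-0.542).

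In Ripk3KO mice CD-HFD changed 8 of 10 members, beside 46.3% of all genes. Tlr1, Tlr4, Tlr7, Tlr8, Tlr9 and Cd14 were higher than on control without overlap, and Tlr5 and Myd88 were lower. Tlr1 was at 11.5, 10.9, 6.91 and 8.19 CPM in the 4 CD-HFD libraries, all above the 0 to 1.93 CPM of the 6 control libraries, a log2 change of 3.5 (SE 0.42, adjusted p 6.07e-09). Cd14 was at 27, 33.2, 34.7 and 23.6 CPM against 1.26 to 8.42 CPM, a log2 change of 2.76 (SE 0.35, adjusted p 1.57e-08). Tlr4 rose by 2.37 (SE 0.39), Tlr7 by 2.36 (SE 0.40) and Tlr8 by 2.91 (SE 0.48). Tlr9 held 36 counts in 4 CD-HFD libraries and 2 in 6 control libraries, a pooled rate ratio of 15.8 (95% Clopper-Pearson interval 4.08 to 136, counting error only).

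Tlr5 fell by 0.998 on the log2 scale in Ripk3KO (SE 0.36, adjusted p 0.022), a call lost with scaling by library size alone (-0.48, adjusted p 0.266) and in 3 of 10 fits leaving out 1 library (Ripk3KO CD-HFD replicate 1, control replicate 2 or control replicate 5; adjusted p up to 0.0975). Myd88 fell by 0.67 (SE 0.21, adjusted p 0.00767), from 35.1 ± 9.0 CPM (n = 6) to 22 ± 3.03 CPM (n = 4), without overlap, and by 0.14 (adjusted p 0.607) with scaling by library size alone. That scaling called Ly96 higher (log2 0.92, adjusted p 0.014). Tlr2 differed by 0.05 (SE 0.48, adjusted p 0.938), with 11.5, 15.6, 13.6 and 14.9 CPM on CD-HFD. The control libraries of this genotype spread from 0.628 to 42.1 CPM and hold that whole range.

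On CD-LFD, Tlr1 (log2 2.37, SE 0.47, adjusted p 0.000271) and Cd14 (log2 1.51, SE 0.38, adjusted p 0.0036) were higher than on control in Ripk3KO, 2 of 10 against 24.1% of all genes. Without Ripk3KO CD-LFD replicate 3 the Cd14 call was lost (adjusted p 0.0614), which left 1 member called. Scaling by library size alone called 4, the others being Tlr7 (log2 1.43, adjusted p 0.0248, against 1.11 and 0.0829) and Ly96 (log2 0.97, adjusted p 0.0298, against 0.64 and 0.139). Tlr7 also passed with DESeq2 (adjusted p 0.0497) and without Ripk3KO control replicate 6 (adjusted p 0.0338). Between CD-HFD and CD-LFD, Tlr4 (log2 2.07, SE 0.47, adjusted p 0.00326), Tlr8 (log2 2.67, SE 0.58, adjusted p 0.0023) and Cd14 (log2 1.25, SE 0.40, adjusted p 0.0368) were higher on CD-HFD, 3 of 10 against 8.83% of all genes. The Cd14 call was lost in 6 of 7 fits leaving out 1 library (adjusted p up to 0.243), and held only without CD-HFD replicate 5. Tlr1 (log2 1.13, adjusted p 0.0911) and Tlr7 (log2 1.24, adjusted p 0.0811) passed with DESeq2 (adjusted p 0.0343 and 0.0411) and in the fit of only the compared groups (adjusted p 0.0336 and 0.0438), which each called 5 members. Tlr1 also passed without CD-LFD replicate 3 (log2 1.63, adjusted p 0.0466), and Tlr7 with scaling by library size alone (adjusted p 0.0449).

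In MlklKO mice CD-HFD changed 7 of 10 members, beside 45.2% of all genes. Tlr1, Tlr4, Tlr7, Tlr8, Tlr9 and Cd14 rose without overlap and Myd88 fell. Tlr8 was at 7.66, 3.91 and 5.86 CPM in the 3 CD-HFD libraries and 0.215 to 0.875 CPM in the 6 control libraries, a log2 change of 3.36 (SE 0.46, adjusted p 1.23e-07). Tlr1 rose by 3.58 (SE 0.44), Tlr7 by 2.73 (SE 0.43), Tlr4 by 2.20 (SE 0.39) and Cd14 by 1.34 (SE 0.35). Tlr9 held 36 counts on CD-HFD and 4 on control, a pooled rate ratio of 16.3 (95% Clopper-Pearson interval 5.86 to 63.2, counting error only). Myd88 fell by 0.85 (SE 0.23, adjusted p 0.00265), a call lost with scaling by library size alone (-0.32, adjusted p 0.269) and in the fit of only the compared groups (adjusted p 0.0584). Tlr2 differed by 0.41 (adjusted p 0.552), Tlr5 by -0.73 (adjusted p 0.183) and Ly96 by -0.51 (adjusted p 0.213).

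On CD-LFD, MlklKO livers had higher Tlr1 (log2 2.64, SE 0.44, adjusted p 1.39e-05) and Tlr7 (log2 1.38, SE 0.44, adjusted p 0.0117) and lower Myd88 (log2 -0.71, SE 0.21, adjusted p 0.00739) than on control, 3 of 10 against 37.9% of all genes. Tlr2 (log2 -0.98, adjusted p 0.131) and Cd14 (log2 -0.75, adjusted p 0.0844) did not pass, though Tlr2 did in the fit of only the compared groups (adjusted p 0.0434). Without MlklKO control replicate 6 Cd14 was lower (log2 -0.96, adjusted p 0.0157). Between CD-HFD and CD-LFD, Tlr4, Tlr7, Tlr8, Tlr9 and Cd14 were higher on CD-HFD, 5 of 10 against 23.7% of all genes, with log2 differences of 1.34 (Tlr7) to 2.37 (Tlr9). Without CD-HFD replicate 4, or without CD-LFD replicate 4, Tlr7 and Tlr9 were lost and 3 members were called. Tlr9 was also lost without replicate 1 of either diet (adjusted p 0.0627 and 0.0775), with DESeq2 (adjusted p 0.0585) and without the count filter (adjusted p 0.0594 by edgeR).

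The genotypes were then compared on the control diet, which asks whether loss of either gene changed the members without the choline-deficient diets. Tlr2 was higher in both knockouts. It was at 0.777, 0.628, 10.1, 8.03, 19.8 and 42.1 CPM in Ripk3KO replicates 1 to 6 and at 15.7, 11.1, 10.9, 15.6, 11.9 and 2.54 CPM in MlklKO replicates 1 to 6, against 0.913 to 2.15 CPM in WT. In Ripk3KO 2 libraries lay below the WT range and 4 above it, and in MlklKO every library lay above it. The log2 difference from WT was 3.10 in Ripk3KO (SE 0.57, adjusted p 0.00061) and 2.85 in MlklKO (SE 0.57, adjusted p 0.000267). The first was lost in the fit of only the compared groups (3.10, adjusted p 0.105), and was 2.38 (adjusted p 0.00555) without Ripk3KO control replicate 6.

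Cd14 was at 2.83 to 26.1 CPM in MlklKO control livers and 0.913 to 2.62 CPM in WT, without overlap, a log2 difference of 2.83 (SE 0.39, adjusted p 1.52e-06). In Ripk3KO it was at 1.26 to 8.42 CPM, a log2 difference of 1.36 (SE 0.42, adjusted p 0.0543), which passed with DESeq2 (adjusted p 0.0147), without the count filter (adjusted p 0.0435 by edgeR), and without Ripk3KO control replicate 1 or 2 or WT control replicate 1 (adjusted p 0.0208 to 0.0393 by edgeR). Myd88 was higher in Ripk3KO by 0.78 (SE 0.19, adjusted p 0.0113) and in MlklKO by 0.96 (SE 0.19, adjusted p 0.000226), with means of 35.1 ± 9.0 and 39.8 ± 15.5 CPM against 20.7 ± 4.7 CPM in WT (n = 6 each). The Ripk3KO call was lost in the fit of only the compared groups (adjusted p 0.108) and with the clock-phase covariate (adjusted p 0.0504), where 4 of 6 WT and 0 of 6 knockout control libraries were on the high side. Tlr5 was lower in MlklKO by 1.38 on the log2 scale (SE 0.33, adjusted p 0.00197), at 0.862 to 8.5 CPM against 6.46 to 15.2 CPM, with overlap. In Ripk3KO it differed by -0.28 (adjusted p 0.668). In all, 2 of 10 members were called in Ripk3KO against 4.47% of all genes, and 4 of 10 in MlklKO against 27.1%.

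Acute-phase genes, a list added after the levels had been seen, varied widely among the control livers. Saa1, a liver-secreted serum amyloid, was at 12.3 to 43.8 CPM in WT. In Ripk3KO it was at 13.2 and 37.9 CPM in replicates 1 and 2, the libraries with the lowest Tlr2, and at 2075 to 9103 CPM in the other 4. Cd14 was also lower in replicates 1 and 2 (2.72 and 1.26 CPM) than in the other 4 (2.84 to 8.42 CPM), while Myd88 and Tlr5 did not divide these libraries in that way. Myd88 was at 27.2 and 28.7 CPM in replicates 1 and 2 and at 28.4 CPM in replicate 6 (Saa1 5152 CPM), and Tlr5 was at 10.8 CPM in replicate 5, which had the highest Saa1, and at 8.16 CPM in replicate 1. In MlklKO it was lowest in replicate 6 (473.1 CPM), which also had the lowest Tlr2, Cd14 and Myd88 (16 CPM) and the highest Tlr5 (8.5 CPM), and was at 954.9 to 4053 CPM in the other 5. Lcn2 gave 0.456 to 6.6 CPM in WT, 2.53 to 806 CPM in Ripk3KO and 16.3 to 818.1 CPM in MlklKO. Lbp, which carries lipopolysaccharide to CD14, was higher in both knockouts (Ripk3KO 192.9 against 56.3 CPM, log2 1.77, edgeR adjusted p 1.12e-05, and MlklKO 146.5 CPM, log2 1.38, edgeR adjusted p 6.15e-05). Cell type markers differed on this diet too. The summed lipid-associated macrophage markers were at 85.6 to 144.5 CPM in MlklKO against 48.4 to 69.9 CPM in WT, without overlap (1 of 5 called higher), and at 50.9 to 108.8 CPM in Ripk3KO (0 of 5 called). Monocyte sums had medians of 1691 CPM in Ripk3KO and 2035 CPM in MlklKO against 1029 CPM in WT (0 and 1 of 4 tested called higher). In WT this sum far exceeded the pan-leukocyte sum (median 29.3 CPM), so it is not read as a measure of monocytes. Neutrophil sums had medians of 2.15 and 2.96 against 0.366 CPM (1 of 2 tested higher in each). B cell sums had medians of 1.18 and 0.811 against 3.85 CPM (0 and 3 of 3 tested lower), and in MlklKO 2 of 4 sinusoidal endothelium markers were higher. None of the 4 pan-leukocyte, 5 general macrophage and 5 Kupffer cell markers was called in either knockout. Not every gene of the acute-phase list separated the libraries by Tlr2. Orm2, another secreted acute-phase protein, was at 20.6, 22.5 and 20.7 CPM in MlklKO control replicates 2, 3 and 6, where Tlr2 was at 11.1, 10.9 and 2.54 CPM. In Ripk3KO control Orm2 did divide the libraries as Tlr2 did, at 4.28 and 4.19 CPM in replicates 1 and 2 and 68.8 to 925.5 CPM in the other 4. The part of the acute-phase genes and of these markers in the members' differences was not tested.

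**Figure D4:**
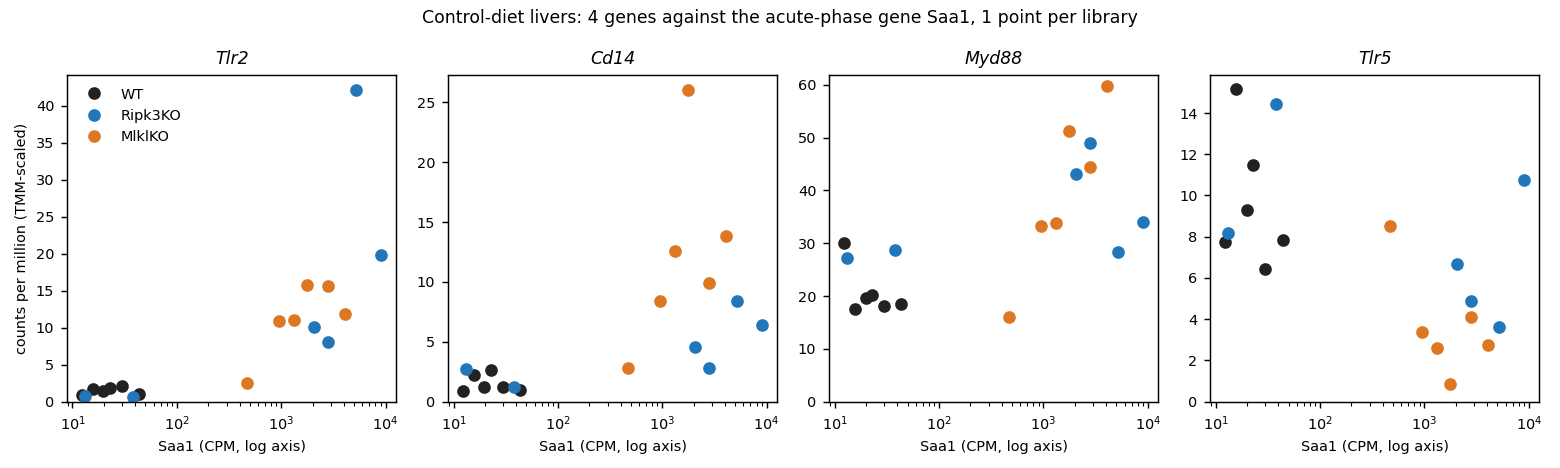
Levels of Tlr2, Cd14, Myd88 and Tlr5 (CPM, linear axis) against Saa1 (CPM, log axis) in the 18 control-diet libraries, coloured by genotype. All 6 WT libraries lie at Saa1 of 43.8 CPM or less, and the 2 Ripk3KO libraries in that range have Tlr2 of 0.777 and 0.628 CPM.

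The pathway lists were also compared between genotypes on the control diet, beside 4.47% of all genes called in Ripk3KO and 27.1% in MlklKO. Of 12 inducible targets tested, 3 were called in Ripk3KO and 4 in MlklKO: 1 was higher in Ripk3KO (Cxcl1, log2 3.82, edgeR adjusted p 0.000236) and 2 in MlklKO (Cxcl1, log2 5.50, edgeR adjusted p 2.1e-07, and Cxcl2, log2 4.22, edgeR adjusted p 0.000842), and Il1a and Il1b were lower in both. Ticam1, the adaptor TRIF, was higher in Ripk3KO by 0.63 (edgeR adjusted p 0.0171) and in MlklKO by 1.07 (edgeR adjusted p 4.56e-06). Of the 20 signalling genes none was called in Ripk3KO, while 6 were higher and 1 lower in MlklKO, among them Rela (log2 0.73, edgeR adjusted p 6.16e-05) and Nfkb1 (log2 0.80, edgeR adjusted p 0.00281), which encode NF-kappaB subunits. Accessory and trafficking genes were called in 1 of 11 (Ripk3KO) and 4 of 11 (MlklKO), negative regulators in 1 of 8 and 3 of 8, other Toll-like receptors in 1 of 5 and 1 of 5, and endogenous ligands in 0 of 7 and 2 of 7.

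On the choline-deficient diets no member was called between genotypes in the fit over all libraries. On CD-HFD, Tlr2 was at 14.1 ± 4.8 CPM in WT (n = 6), 13.9 ± 1.8 CPM in Ripk3KO (n = 4) and 14.9 ± 3.5 CPM in MlklKO (n = 3), with overlap. By edgeR, 0 of 10 members were called in Ripk3KO (0.377% of all genes called, 0 members at an unadjusted p under 0.05) and 0 of 10 in MlklKO (0% of all genes, 3 members at an unadjusted p under 0.05). DESeq2 also called 0 in each. The 3 at an unadjusted p under 0.05 were Tlr8, Tlr9 and Ly96 in MlklKO. The share of all genes at that unadjusted level was not counted in any comparison. Tlr9 was at 1.75 ± 1.15 CPM in MlklKO (n = 3) and 0.568 ± 0.465 CPM in WT (n = 6), with overlap. Tlr8 was at 7.66, 3.91 and 5.86 CPM in MlklKO against 1.29 to 3.82 CPM in WT, without overlap, a log2 difference of 1.37 (SE 0.40, 95% interval 0.56 to 2.18, adjusted p 0.568). Tlr1 was at 7.84, 9 and 8.93 CPM in MlklKO against 9.16 to 10.7 CPM in WT, also without overlap, a log2 difference of -0.20 (SE 0.37, adjusted p 0.88). Ly96 was at 1.74, 3.13 and 3.33 CPM against 3.25 to 5.57 CPM, a log2 difference of -0.67 (SE 0.33, adjusted p 0.587). On CD-LFD, edgeR called 0 in Ripk3KO (1.1% of all genes called, 1 member at an unadjusted p under 0.05) and 0 in MlklKO (2.56% of all genes, 2 members). DESeq2 called 0 in both, and the fit of only the compared groups called 1 in MlklKO, Myd88 (log2 0.46, adjusted p 0.0495, against 0.257 in the fit over all libraries). For Tlr2 the 95% interval of the log2 difference from WT on CD-HFD was -0.97 to 0.93 in Ripk3KO and -0.97 to 1.13 in MlklKO, intervals that hold differences of up to about 1 in either direction.

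The difference of the diet changes between genotypes was tested as an interaction. Relative to the change in WT, the CD-HFD change of Tlr2 was smaller by 3.12 on the log2 scale in Ripk3KO (log2 -3.12, SE 0.76, adjusted p 0.0414) and by 2.77 in MlklKO (log2 -2.77, SE 0.80, adjusted p 0.0379). In MlklKO the rise of Cd14 was also smaller than in WT (log2 -2.55, SE 0.54, adjusted p 0.00524). Myd88, which was lower on CD-HFD in MlklKO (log2 -0.85) and not called in WT (log2 0.25), had an interaction of -1.10 (SE 0.30, adjusted p 0.028). These are 1 of 10 members in Ripk3KO against 0.478% of all genes, and 3 of 10 in MlklKO against 4.12%. For CD-LFD, Tlr2 (log2 -3.32, SE 0.78, adjusted p 0.00608) and Cd14 (log2 -2.99, SE 0.53, adjusted p 0.000429) were called in MlklKO, 2 of 10 against 8.45% of all genes. In Ripk3KO the CD-LFD value for Tlr2 was -3.05 (SE 0.82, adjusted p 0.206), with 0 of 10 called against 0.0269% of all genes and 1 member at an unadjusted p under 0.05. DESeq2 called that 1 (log2 -3.12, adjusted p 0.0233), and so did edgeR without Ripk3KO control replicate 1 or 2 (adjusted p 0.0386 and 0.0421). Over the fits leaving out 1 library this Tlr2 value ranged from -3.485 to -2.325.

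Each interaction combines 4 groups, and the control groups are the ones in which these members differed between genotypes. The control mean of Tlr2 was 1.5 ± 0.48 CPM in WT, 13.6 ± 15.7 in Ripk3KO and 11.3 ± 4.8 in MlklKO (n = 6 each), and that of Cd14 was 1.53 ± 0.71, 4.37 ± 2.66 and 12.3 ± 7.8 CPM. The Tlr2 interactions with CD-HFD did not hold in every fit. That of Ripk3KO was lost in 15 of 22 fits leaving out 1 library. The highest adjusted p was 0.11 by edgeR, without Ripk3KO control replicate 6, where the log2 value was -2.40. The call held without Ripk3KO control replicate 1 or 2, WT CD-HFD replicate 1, 5 or 6, or WT control replicate 2 or 4. It was also lost with scaling by library size alone (adjusted p 0.0504), the clock-phase covariate (0.0522), WT control replicates 5 and 6 left out (0.0597), the replicate number as a block (0.088) and only the compared groups fitted (0.148). That of MlklKO was lost in 11 of 21 (adjusted p up to 0.102, without MlklKO CD-HFD replicate 2), among them every fit without a MlklKO CD-HFD library, and also without WT control replicates 5 and 6 together (adjusted p 0.0565) and with the block (adjusted p 0.0576). The Myd88 interaction was lost without any 1 of the 3 MlklKO CD-HFD libraries or without MlklKO control replicate 1 or 5 (adjusted p up to 0.0724), and in the fit of only the compared groups (-1.15, adjusted p 0.0822). Without replicate 1 of the libraries labelled MlklKO CD-HFD only Cd14 was called. The Cd14 interactions were called in all of these fits and in all other settings run.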

How the data were processed

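The authors deposited 1 table of raw counts by Ensembl identifier, with 1 column for each of the 44 liver libraries. The submitters' processing notes name FastQC, STAR, HTSeq, edgeR, limma and the build GRCm39 (mm39), without versions or roles. The RNA was total RNA, prepared with a directional kit per the labels' protocols. Gene symbols (34373 of 35249 genes), exon lengths, neighbours and shared stretches came from reference tables of GENCODE M21, and promoter windows from RefSeq (GRCm38.p6). No coordinates of the deposited genes are used.

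Groups are genotype and diet from the labels. Genes were kept by filterByExpr (minimum count 10; 14862 genes, 99.85% of counts) and scaled by TMM. The edgeR (4.0.16, R 4.3.3) quasi-likelihood test was fitted over all libraries with 1 mean per group for 19 contrasts, with Benjamini-Hochberg adjustment within each, and tested on simulated data. Standard errors (SE) were derived from the F statistic. Replicate numbers were not used as pairs: same-numbered libraries had a mean correlation of 0.0146 (-0.337 to 0.399). Counting intervals cover counting error only, since reads carry no molecular identifiers. Depth was lowest at 2476268 counts, where 3 counts are 1.37 TMM-scaled CPM, so members under that level are loosely measured.

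The members, lists, tests and most alternatives were chosen with earlier results of these data known, and the acute-phase list was added after seeing these values. The members were always named. In each pathway list, the named genes were by rule the called genes of largest change in WT on CD-HFD that had no overlap between groups. Genes named beside them (Il1b, Lbp, Ticam1, Cxcl1, Rela, Nfkb1 and others in the control comparison) were chosen after their values were seen. Alternatives were DESeq2 (1.42.0), RLE factors, scaling by library size, keeping all genes, a fit of the compared groups alone, robust dispersions, a block for the replicate number, a clock-phase covariate (side of the gap in the Arntl to Dbp ratio), leaving out each library, and leaving out WT control replicates 5 and 6 together. For the ratios they were a larger pseudocount and a count minimum.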

Additional observations from a re-analysis of the deposited data

Results flagged for a closer look

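In 70 groups of 4 to 6 libraries, 8 had 1 library far from the rest by Dixon's criterion. Chance flags about 1 group in 20 where values are normally distributed. That rate does not hold for groups of few counts, such as Tlr9 (3 counts), Tlr8 (10) and Tlr4 (18) in WT control. Of the 8 flagged groups, 5 were in WT control. Tlr1 was at 2.44 CPM in replicate 6 against 0.17 to 0.552 CPM in the other 5. Tlr4 (1.1 CPM against 0.456 to 0.615) and Tlr8 (0.966 CPM against 0 to 0.244) both stood high in replicate 1. Tlr9 was at 0.615 CPM in replicate 4 against 0 to 0.17 CPM, and Myd88 at 30.1 CPM in replicate 5 against 17.5 to 20.2 CPM. Outside that group, Tlr2 was at 2.54 CPM in MlklKO control replicate 6 against 10.9 to 15.7 CPM, and at 23.6 CPM in WT CD-HFD replicate 3 against 10.5 to 13.9 CPM. Ly96 was at 3.1 CPM in WT CD-LFD replicate 3, the deepest library, against 4.33 to 4.93 CPM.

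The diet change differed between genotypes, by the edgeR test of the interaction, for 3 members. For Tlr2 the knockout change on CD-HFD minus that of WT was -3.12 in Ripk3KO and -2.77 in MlklKO on the log2 scale, and on CD-LFD it was -3.32 in MlklKO. For Cd14 in MlklKO it was -2.55 on CD-HFD and -2.99 on CD-LFD, and for Myd88 in MlklKO it was -1.10 on CD-HFD. The CD-HFD calls of Tlr2 and Myd88 were lost in some of the other fits, as given above, while those of Cd14 held in all fits run.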

How the results depend on the processing

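Scaling by library size alone moved the median log2 change of all genes by over 0.1 in most comparisons, to 0.49 in Ripk3KO and MlklKO on CD-HFD. Not every member was followed through the alternatives in every comparison. Among the values followed, this scaling turned 2 uncalled ones, Ly96 in MlklKO on CD-HFD (0.027) and Myd88 in WT on CD-LFD (0.0922). It gave 4 called members in Ripk3KO on CD-LFD in place of 2. With only the compared groups fitted, 8 members were called for WT CD-HFD against CD-LFD, 5 for the same in Ripk3KO, 1 for MlklKO against WT on CD-LFD, and 0 for Ripk3KO against WT on control. DESeq2 also gave 5 for Ripk3KO CD-HFD against CD-LFD, and DESeq2 and no count filter each gave 1 for Ripk3KO and CD-LFD (interaction). The clock-phase covariate gave 1 for Ripk3KO against WT on control. The interaction of Ripk3KO and CD-HFD went from 1 to 0 under 5 settings: the clock-phase covariate, WT control replicates 5 and 6 left out, library size alone, only the compared groups, and the replicate block. The causes were not tested.

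With the replicate number as a block, the Tlr2 interactions with CD-HFD were no longer called (Ripk3KO -2.89, adjusted p 0.088, 0 members called; MlklKO -2.63, adjusted p 0.0576, 2 called), and every other count was unchanged. The libraries share only a number: 7 of 44 correlated best with their own.

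Leaving out each library gave 7 to 9 called members for WT CD-HFD, 4 to 5 for WT CD-LFD and 4 to 6 between them. The ranges were 7 to 8, 1 to 3 and 2 to 3 in Ripk3KO, and 7 to 7, 3 to 4 and 3 to 5 in MlklKO. Against WT on control they were 2 to 3 (Ripk3KO) and 4 to 4 (MlklKO). The interactions gave 0 to 1 for Ripk3KO on either diet, and 1 to 4 (CD-HFD) and 2 to 3 (CD-LFD) for MlklKO. Among the member values followed, which were not all, uncalled ones changed sign for Ly96 between WT CD-HFD and CD-LFD (-0.0412 to 0.132). They also did for Tlr2 in Ripk3KO on CD-HFD (-0.195 to 0.776) and on CD-LFD (-1.13 to 0.0159).

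Of the 7 ratios, 6, 5, 3, 3 and 3 were called for WT CD-HFD, WT CD-LFD, WT CD-HFD against CD-LFD, Ripk3KO CD-HFD and MlklKO CD-HFD. A minimum of 5 counts left too few control libraries for any call in the 4 comparisons against control, so its 0 calls there decide nothing. A pseudocount of 2 gave 3 for WT CD-LFD, and leaving out any library of MlklKO gave 0, where the smaller groups cannot reach the threshold.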
